A study of Mus musculus with 12 samples.

Results

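The genes described here are 10 genes of lipid droplets, found by symbol among the 25284 genes of the count table: the perilipins Plin1, Plin2, Plin3, Plin4 and Plin5, the Cide genes Cidea and Cidec, and the lipases Pnpla2, Lipe and Mgll. All 10 were in the table and passed the filter on low counts, which kept 15857 genes. RNA came from the thoracic aorta of 12 male ApoE-/- mice, which lack apolipoprotein E in both groups, ate a diet high in fat and cholesterol and were 18 weeks old. AZ6983, an agonist of the α7 nicotinic acetylcholine receptor (α7nAChR), was delivered to 6 mice (A1 to A6) by subcutaneous osmotic minipumps for 8 weeks, at a daily dose of 50 µmol per kg, and 6 controls (C1 to C6) received cyclodextrin in saline from such pumps. The sources used here do not say whether the fat around the aorta was removed.

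Cells store triglyceride in lipid droplets, whose surface carries perilipins and Cide proteins that control access of lipases. Release of fatty acids runs in order through adipose triglyceride lipase (Pnpla2), hormone-sensitive lipase (Lipe) and monoglyceride lipase (Mgll). Adipocytes, the brown and white fat around the aorta included, are coated mainly by perilipin 1, whereas perilipin 2 coats droplets of most other cells and of macrophage foam cells in plaques.

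Levels are library-scaled counts (CPM, a gene's share of the reads on genes, scaled by TMM, the trimmed mean of M values), and differences are log2 fold changes of AZ6983 against control with a standard error (SE) from edgeR's quasi-likelihood test. A gene was called at an adjusted p under 10% false discovery rate (FDR, Benjamini-Hochberg over all genes tested). At this threshold 0 of the 10 genes were called, and the background was 0% of the 15857 genes tested. At an unadjusted p under 0.05, again 0 of 10 passed, against a background of 10.2%. By DESeq2, which called 92 genes, and by limma-voom, which called 0, none of the 10 was called either.

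Control libraries held 25641329 to 29131708 counts on genes and AZ6983 libraries 23810036 to 35864666, and each of the 10 genes had at least 1224 counts in every mouse. Apoe had 117 to 311 counts, with log2 fold change 0.25, and Chrna7, which encodes the α7 subunit, had 19 to 114 counts and a log2 fold change of -0.62 (SE 0.417, adjusted p = 0.591). In A5 the 10 most abundant genes took 30.2% of counts on genes, against at most 22.1% in the other mice. In A4 the summed level of 7 thymocyte and T cell markers was 1015 CPM, and in controls it was at most 28.2 CPM. The column of A1 matched its label in 3 of 4 digits of the mouse number. The labels name neither litter nor batch, so that p-values measure only the spread between these mice.

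The marker lists showed vessel wall and fat in every mouse. Summed smooth muscle markers (8 of 8 tested) lay between 14139 and 18864 CPM in controls and between 11047 and 18926 CPM in AZ6983 mice. White adipocyte markers (7 of 7) summed to 1925 to 4652 CPM in controls and 3103 to 4694 CPM in AZ6983 mice. Brown adipocyte markers (8 of 9 tested, Zic1 having 0 to 3 counts but kept in the sum) summed to 2568 to 4176 CPM in controls and 2040 to 5267 CPM in AZ6983 mice. Macrophage markers (8 of 8) summed to 340 to 795 CPM and 236 to 815 CPM. In bulk tissue, fewer cells of a type and less RNA per cell cannot be told apart.

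Per kilobase of exon, Cidea had the highest level, with a median of 549 CPM per kb over the 12 mice. Cidec followed at 189 CPM per kb and Pnpla2 at 181 CPM per kb, and these neighbours were not apart, since Cidec exceeded Pnpla2 in 7 of 12 mice. Next on the same scale stood Plin2 at 128 and Plin4 at 95.2 CPM per kb, each above the next gene in 11 of 12 mice. Plin1 at 65.0, Mgll at 64.0 and Lipe at 63.3 CPM per kb lay together, Plin1 exceeding Mgll in 5 of 12 mice and Mgll exceeding Lipe in 10. The lowest levels were those of Plin5 at 32.7 CPM per kb and Plin3 at 22.2 CPM per kb.

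**Figure D1:**
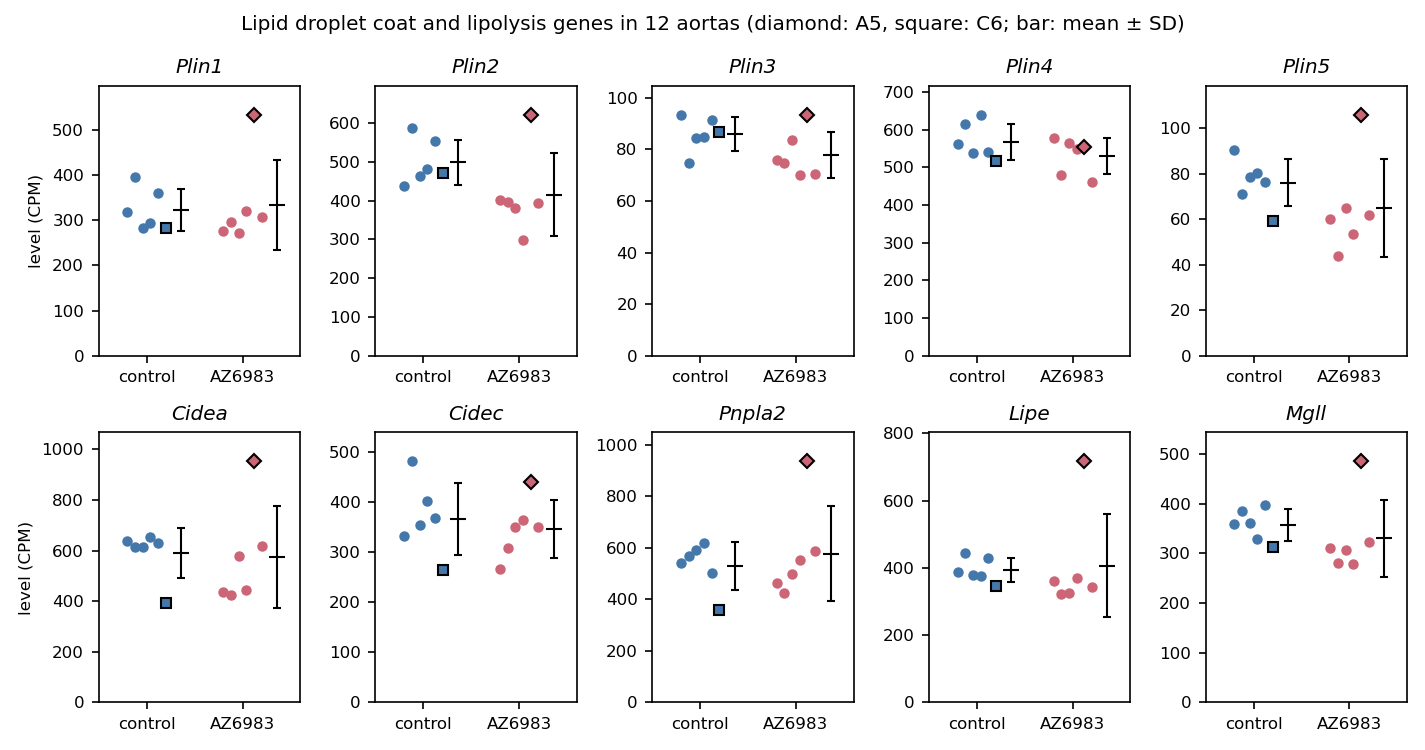
Level in CPM (vertical axis, from 0) of the 10 genes in 6 control and 6 AZ6983 mice, 1 point per mouse, with the mean and SD of each group as a bar. After TMM scaling, mouse A5 (diamond) had the highest level of all 12 mice in 7 of the 10 genes, and mouse C6 (square) the lowest level of Cidea, Cidec and Pnpla2.

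Plin1 (chromosome 7, 79720218 to 79732903, minus strand, GENCODE M21 on GRCm38) encodes the perilipin of adipocytes, which keeps lipases from the droplet until protein kinase A phosphorylates it. Its level was 282 CPM in the lowest, 307 in the median and 395 in the highest control, and 273, 302 and 533 CPM in AZ6983 mice. The groups overlapped, and A5 alone stood above every control. The log2 fold change was 0.05 (SE 0.162, edgeR adjusted p = 0.922). Plin2 (chromosome 4, 86648386 to 86670060, minus strand) encodes the perilipin found on droplets of most cell types. Controls had 437 (lowest), 475 (median) and 588 CPM (highest), and AZ6983 mice 300, 395 and 621 CPM. In 5 of 6 AZ6983 mice Plin2 lay below every control, while A5 lay above every control. This place of A5 rests on TMM scaling, whose factor was 0.837 in A5 and 0.987 to 1.07 in the other mice. The log2 fold change of Plin2 was -0.26 (SE 0.147, unadjusted p = 0.096, edgeR adjusted p = 0.538). Scaled by library size only, without TMM, it was -0.30 (SE 0.113, unadjusted p = 0.020, edgeR adjusted p = 0.564).

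The 300-base promoter windows of both genes (mostly upstream of the RefSeq start, assembly GRCm38.p6, minus strand, 5′ to 3′) are shown because the ratio of Plin2 to Plin1 within a mouse had the lowest p of the 45 pairs of these genes (exact permutation p = 0.00649, 0.26 after adjustment over the pairs), with groups that overlapped. Capitals mark matches to TTGCNNAA (a C/EBP motif) in Plin1 at chr7:79732727-79733026 and to CACGTG (an E-box) in Plin2 at chr4:86670010-86670309.
Plin1: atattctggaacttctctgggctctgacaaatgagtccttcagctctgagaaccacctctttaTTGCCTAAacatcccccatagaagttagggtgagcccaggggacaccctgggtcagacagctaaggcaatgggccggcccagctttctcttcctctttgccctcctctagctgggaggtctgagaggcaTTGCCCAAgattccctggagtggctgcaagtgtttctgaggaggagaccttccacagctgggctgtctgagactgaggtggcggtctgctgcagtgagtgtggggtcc
Plin2: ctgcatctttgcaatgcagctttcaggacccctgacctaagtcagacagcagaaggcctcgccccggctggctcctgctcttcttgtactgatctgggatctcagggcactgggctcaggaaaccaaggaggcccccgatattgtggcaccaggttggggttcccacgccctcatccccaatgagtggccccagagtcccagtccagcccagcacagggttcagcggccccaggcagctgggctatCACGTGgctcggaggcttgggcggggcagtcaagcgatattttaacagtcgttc
Searched on both strands, TTGCNNAA was in 10.8% of 32851 promoter windows of this length, and among 13 windows of 9 of the genes it was in 1 of Plin1 and 1 of Cidec. CACGTG was in 7.15% of all windows and in those of Plin2, Mgll and Lipe. AGGNCANAGGNCA, a direct repeat bound by PPAR and RXR receptors (DR1), was in 0.381% of all windows and in 0 of the 13. A match describes the letters of a window, and no binding was measured.

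Plin3 (chromosome 17, 56277476 to 56292873), which encodes a perilipin of the cytosol that coats small new droplets in many tissues, had 74.6, 85.8 and 93.3 CPM in the lowest, median and highest control and 69.9, 75.3 and 93.2 CPM in AZ6983 mice. The groups overlapped, with 2 AZ6983 mice below every control (log2 fold change -0.14, SE 0.078, edgeR adjusted p = 0.541). Plin4 (chromosome 17, 56100591 to 56109803) encodes a perilipin of adipocytes and muscle. Its levels were 517, 550 and 639 CPM in controls, and 461, 550 and 578 CPM after AZ6983, and A5 held only the sixth place among the 12 mice. The log2 fold change was -0.10 (SE 0.080, edgeR adjusted p = 0.649). Plin5 (chromosome 17, 56111601 to 56117596) encodes the perilipin of oxidative tissues, which links droplets to mitochondria. Plin5 had 59.5, 77.6 and 90.4 CPM in controls, and 44.0, 60.9 and 106 CPM after AZ6983, the highest value being that of A5. The log2 fold change was -0.23 (SE 0.177, edgeR adjusted p = 0.632).

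Cide proteins fuse droplets by passing lipid from the smaller to the larger. Cidea (chromosome 18, 67343604 to 67367785), high in brown fat, had 394, 622 and 653 CPM in the lowest, median and highest control and 424, 512 and 952 CPM in AZ6983 mice. In the controls C6 stood far below the rest, and in the AZ6983 mice A5 stood above all (log2 fold change -0.04, SE 0.199, edgeR adjusted p = 0.961). Cidec (chromosome 6, 113424634 to 113435760), the Cide gene of white fat, had 264, 361 and 481 CPM in controls, and 266, 350 and 440 CPM after AZ6983. For Cidec every AZ6983 mouse lay within the range of the controls (log2 fold change -0.08, SE 0.142, edgeR adjusted p = 0.854).

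Pnpla2 (chromosome 7, 141455198 to 141460743), which takes the first fatty acid off triglyceride, had 359, 555 and 619 CPM in the lowest, median and highest control and 426, 526 and 935 CPM in AZ6983 mice. All AZ6983 mice other than A5 lay within the control range (log2 fold change 0.12, SE 0.187, edgeR adjusted p = 0.828). Lipe (chromosome 7, 25379527 to 25398710), which hydrolyses diglyceride, had 346, 384 and 444 CPM in controls, and 322, 352 and 717 CPM after AZ6983. In 3 AZ6983 mice Lipe lay below every control and in A5 above every control (log2 fold change 0.04, SE 0.183, edgeR adjusted p = 0.946). Mgll (chromosome 6, 88724412 to 88828360), which releases the last fatty acid and also breaks down the endocannabinoid 2-arachidonoylglycerol, had 314, 360 and 397 CPM in controls, and 278, 309 and 485 CPM after AZ6983. In 4 AZ6983 mice Mgll lay below every control, and in A5 above (log2 fold change -0.11, SE 0.128, edgeR adjusted p = 0.761). Lipe shares 918 bases of exon with the antisense gene 4732471J01Rik (at most 58 counts in a mouse) and Mgll 167 bases with antisense Gm26588 (at most 40 counts), and the strand setting of the counting is not given in the sources used here.

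Of the 10 log2 fold changes 7 were negative and 3 positive, with a median of -0.09, beside 0.01 over all genes tested. The number of genes whose groups did not overlap was 0 of 10, against a background of 0.41%. Without A5, all 10 log2 fold changes were negative, between -0.44 and -0.09 with a median of -0.22, beside -0.01 over all genes. An unadjusted p under 0.05 was then reached by Plin2 (-0.43, SE 0.101), Plin5 (-0.44, SE 0.120), Mgll (-0.27, SE 0.075), Lipe (-0.21, SE 0.073) and Plin3 (-0.22, SE 0.069), that is by 5 of 10 genes, against a background of 6.95% of genes lower at that p. None of the 10 was called, the lowest edgeR adjusted p being 0.173, for Plin2, and over all genes this fit called 27 of 16011. A5 was singled out here after its values were seen. The 5 AZ6983 mice other than A5 all lay below every control for Plin2 only, 1 of 10 genes, at 300 to 400 CPM, against a background of 0.681%.

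The brown adipocyte score, the mean log2 CPM of the 8 tested markers, moved with these values. It was 6.48 to 7.15 in controls and 6.24 to 7.54 in AZ6983 mice, with medians of 7.06 and 6.46 and the highest value in A5. Its group difference was -0.36 (exact permutation test, two-sided, p = 0.149). Control C6, whose brown score of 6.48 lay among those of the AZ6983 mice, had the lowest Plin4, Plin5, Cidea, Cidec, Pnpla2, Lipe and Mgll of the controls. Its Plin1, at 282 CPM, was level with that of C3, the lowest control. Plin2 at 469.9 CPM and Plin3 at 86.7 CPM were in C6 close to the control medians. With the brown score as a covariate, edgeR called 0.82% of all genes and 0 of the 10. In that fit the log2 fold change of Plin2 was -0.10 (SE 0.102, adjusted p = 0.604), that of Cidea 0.25 (SE 0.070, adjusted p = 0.134) and that of Pnpla2 0.38 (SE 0.095, adjusted p = 0.119). An unadjusted edgeR p under 0.05 was reached there by Cidea, Pnpla2 and Lipe (0.25, SE 0.105), all higher, that is by 3 of 10 genes. The background was 1599 of 15857 genes higher at that p. With both fat scores as covariates it was reached by 2 of 10, Cidea (0.25, SE 0.088) and Pnpla2 (0.29, SE 0.110), against 607 of 15857 genes higher. The white adipocyte score was 7.09 to 7.90 in controls and 7.37 to 7.83 in AZ6983 mice, where all 6 lay above every control other than C2. The groups overlapped, and the group difference of the white score was 0.23 (exact permutation test, two-sided, p = 0.143). With the white score as a covariate all 10 log2 fold changes were negative, with a median of -0.19 and 0 called. An unadjusted p under 0.05 was then reached by Plin2 (-0.38, SE 0.151) and Cidec (-0.27, SE 0.105), both with an edgeR adjusted p of 0.932, against a background of 1.43% of genes lower at that p. Reads on no gene made up 8.02% to 12.7% of the table in controls and 11.2% to 14.9% in AZ6983 mice (medians 10.1% and 12.4%). With that share as a covariate the median log2 fold change of the 10 genes was -0.01, with 6 negative, 4 positive and 0 called. The part of fat content and of these reads in the group differences was not tested beyond these fits.

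**Figure D2:**
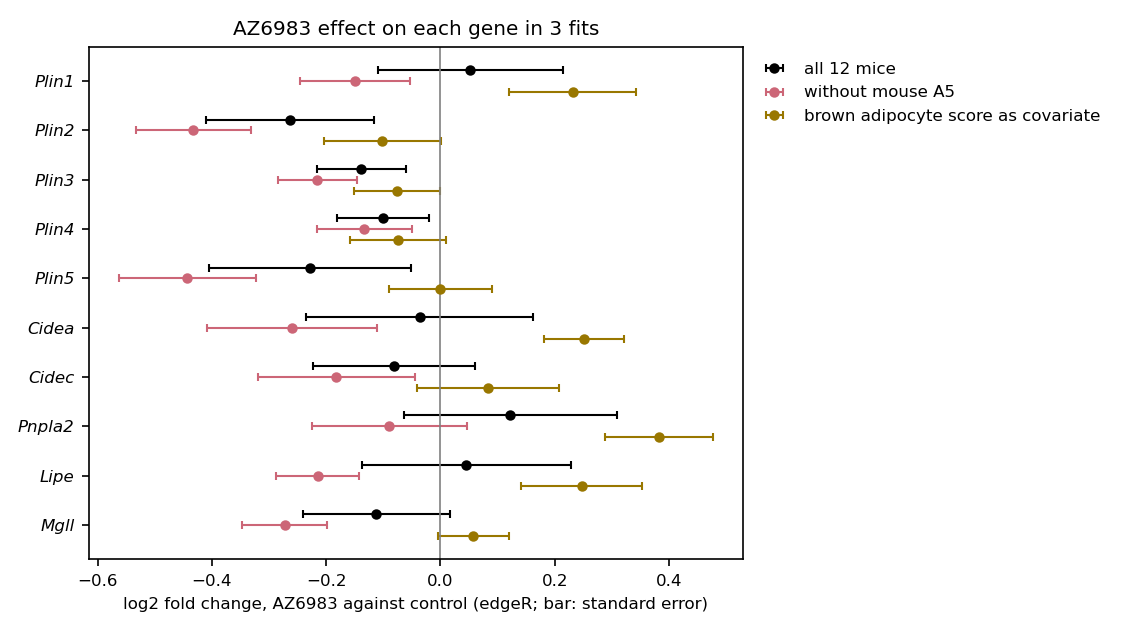
Log2 fold change of AZ6983 against control (horizontal axis) for each gene, with its standard error as a bar, in the fit of all 12 mice, without mouse A5 and with the brown adipocyte score as a covariate. Without A5 all 10 values lie below 0, and with the brown score 6 of 10 lie above 0, whereas with the white score (not drawn) all 10 were negative.

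To separate genes that vary with fat from genes that vary with the vessel wall, the log2 CPM of each was correlated over the 12 mice with the score of 9 marker lists, 90 relations in all. The points share the library total and the makeup of the tissue piece, so that a rise in 1 cell type lowers the share of the others. A gene was put under the list with its highest Pearson r if that r was at least 0.6. By this rule 7 of 10 genes fell under a fat list, always brown adipocytes, 2 under endothelial cells and 1 under no list, against a background of 12.4% of 15740 other genes under a fat list. The scores were not independent, the brown score having r = 0.63 with the endothelial, 0.10 with the white and -0.66 with the smooth muscle score. No gene had its highest r with smooth muscle cells, macrophages or fibroblasts. The r with the smooth muscle score was -0.82 to 0.04 over the 10 genes, that with the macrophage score -0.83 to 0.07 and that with the fibroblast score -0.84 to -0.14.

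Mgll followed the brown score most closely. Its r was 0.92 (permutation p = 3e-05, Benjamini-Hochberg over 90 relations 0.0018) with Spearman's rho 0.93 (permutation p = 8e-05, adjusted 0.0063), and r was 0.87 without A4 and A5, the mice farthest from the median score. Within controls the r of Mgll was 0.67 (exact permutation p = 0.106) and within AZ6983 mice 0.98 (exact permutation p = 0.00417). Plin5 had r = 0.92 (rho 0.89, adjusted permutation p = 0.0018), r = 0.86 without A4 and A5, and 0.74 within controls and 0.94 within AZ6983 mice. Cidea had r = 0.91 (rho 0.84, adjusted permutation p = 0.003), r = 0.85 without those mice, and 0.97 within both groups. For these 3 genes r stayed at or above 0.67 within each group and without A4 and A5. The exact permutation p within controls was 0.143 for Plin5 and 0.05 for Cidea. C6 was the lowest control for all 3 genes, with a brown score of 6.48 against 6.98 to 7.15 in the others. The r within controls therefore leans on C6, and its value without C6 was not computed.

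Plin2 had r = 0.84 with the brown score (rho 0.80, adjusted permutation p = 0.00771) and r = 0.71 without A4 and A5. Within AZ6983 mice its r was 0.91 (exact permutation p = 0.0333), but within controls 0.33 (exact permutation p = 0.565). With the macrophage score, Plin2 had r = 0.00 (rho 0.17, permutation p = 0.998), which was 0.28 within controls and -0.42 within AZ6983 mice. This r depended on A5, being 0.425 without A5 and 0.395 without A5 and A6, the mice farthest from the median macrophage score. Lipe had r = 0.77 with the brown score (rho 0.75, adjusted permutation p = 0.00771) and 0.81 without A4 and A5. For Plin3 the r of 0.63 (rho 0.62, adjusted permutation p = 0.0983) did not pass a threshold of 0.05 after adjustment, and it was -0.08 within controls. Cidec was near both fat lists, with r = 0.67 for brown and 0.64 for white markers (adjusted permutation p = 0.0687 and 0.0886).

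Plin1 and Pnpla2 had their highest r with endothelial markers, whose score spanned only 6.61 to 6.93. The r of Plin1 was 0.70 there (rho 0.58, adjusted permutation p = 0.0718), 0.68 with brown and 0.66 with white markers, so that the 3 lists could hardly be ranked. Within controls and within AZ6983 mice Plin1 had r = 0.79 and 0.83 with the white score, yet over 12 mice the value fell to 0.13 without C2 and A5. Pnpla2 had r = 0.83 with the endothelial score (rho 0.48, adjusted permutation p = 0.0312), which fell to 0.21 without C6 and A5, and r = 0.74 with the brown score, which stayed at 0.74 without A4 and A5. It was also the gene with the strongest inverse relations, r = -0.84 with fibroblasts (rho -0.90, adjusted permutation p = 0.00771) and r = -0.83 with macrophages (rho -0.68, adjusted permutation p = 0.00771). Plin4 followed no list, its highest r being 0.36 with the brown score (rho 0.24, adjusted permutation p = 0.429), and its r with smooth muscle cells was 0.04 and with macrophages 0.01. Plin4 was thus the only gene of the 10 that followed neither fat nor a wall cell type by this rule. Without A5, Plin2, Plin5, Cidea, Lipe and Mgll kept brown adipocytes as their list and Pnpla2 endothelial cells, while Plin1, Plin3, Plin4 and Cidec had no list at or above 0.6.

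**Figure D3:**
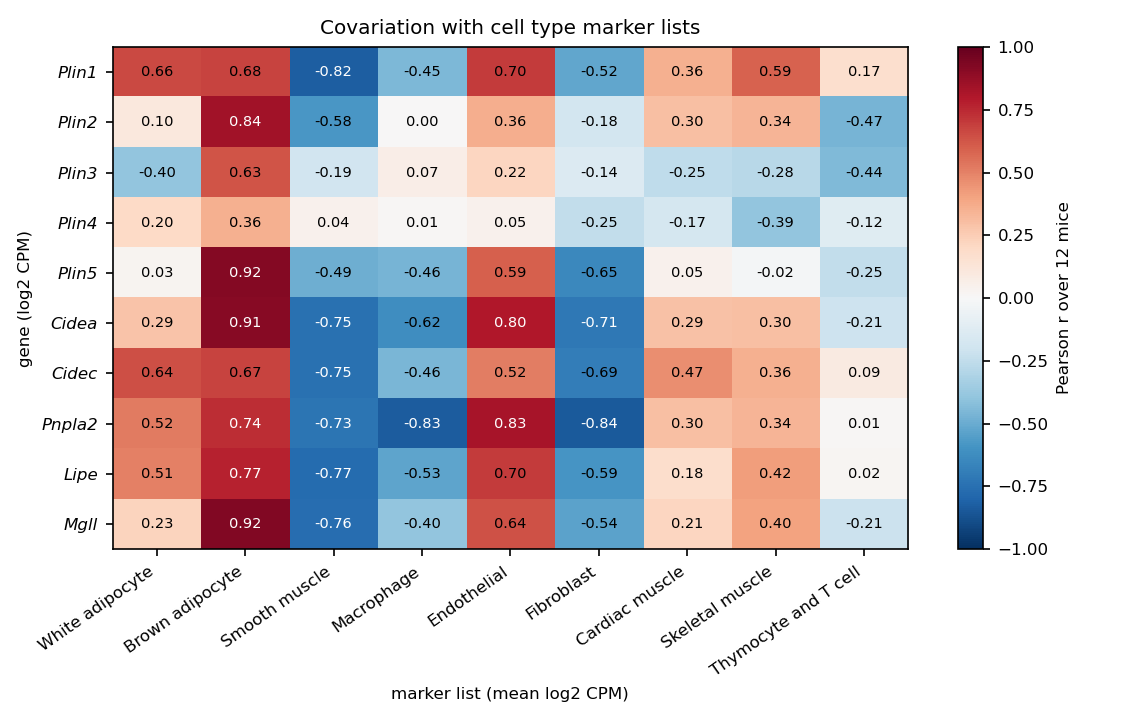
Pearson r over 12 mice, as colour and number, between the log2 CPM of each gene (rows) and the mean log2 CPM of 9 cell type marker lists (columns). The brown adipocyte column holds values from 0.36 for Plin4 to 0.92 for Mgll, while the smooth muscle, macrophage and fibroblast columns are mostly negative.

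**Figure D4:**
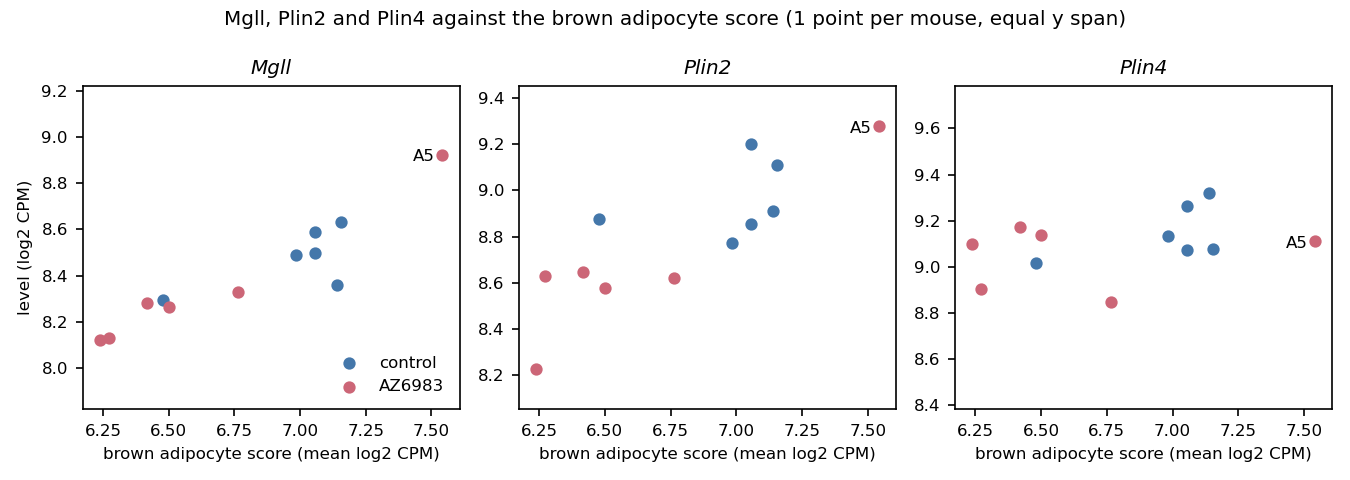
Log2 CPM of Mgll, Plin2 and Plin4 (vertical axes of equal span) against the brown adipocyte score (mean log2 CPM of 8 markers), 1 point per mouse coloured by group. Mgll rises along the score (r = 0.92), Plin2 rises less evenly (r = 0.84), and Plin4 shows little relation (r = 0.36).

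Among themselves the 10 genes had a median r of 0.63 over the 45 pairs, and 0.50 without A5. The closest pair was Plin1 and Lipe with r = 0.94, which was 0.81 without A5. Mgll had the highest median r with the other 9 genes, 0.82, and Plin4 the lowest, 0.27. Over all genes tested, the genes most like each of the 10 were listed by r over the 12 mice, as a description. For Cidea these were Ndufa1, Ndufa5 and Ndufb5 (r = 0.99, 0.99 and 0.98), which encode subunits of respiratory complex I. For Plin5 they were Ifi27, Bckdha and Rmdn1 (0.99, 0.98 and 0.98), Bckdha encoding a subunit of the enzyme that oxidises branched-chain keto acids. For Mgll they were Mpc1, a subunit of the mitochondrial pyruvate carrier, Gbas and Mtx3 (0.98 each).

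Pnpla2 was most like Btnl9, Slc25a5 and Atp5d (0.97, 0.97 and 0.96), of which Slc25a5 encodes an ADP/ATP carrier and Atp5d an ATP synthase subunit. Lipe was most like Clpb, Dbi and Pdhb (0.95 each), and Plin1 most like Mrps15, Ppp2r5a and Lipe (0.97, 0.95 and 0.94). Without A5 these values were 0.79, 0.85 and 0.82 for Lipe and 0.92, 0.85 and 0.81 for Plin1. Plin2 was nearest to 1700037H04Rik, Spg7 and Gpd1 (0.91, 0.90 and 0.90), Gpd1 encoding the cytosolic glycerol-3-phosphate dehydrogenase that supplies the backbone of triglyceride. Cidec was nearest to Trmt10c, Mrps7 and Tank (0.91, 0.91 and 0.90), and Plin3 to Akr1e1, Dennd5a and St6galnac6 (0.90 each). Plin4 was nearest to Ncoa4, an autophagy receptor for ferritin (0.86), and to Appbp2os and E130208F15Rik (0.82 and 0.79), both with medians under 1 CPM.

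The ratio of Plin2 to Plin1 within a mouse does not depend on how libraries are scaled. On the log2 scale it was 0.45, 0.66 and 0.74 in the lowest, median and highest control and -0.09, 0.39 and 0.54 in AZ6983 mice. The groups overlapped, with 4 of 6 AZ6983 mice below every control, and A4 was the only mouse with a log2 ratio below 0. Exon length is not part of this ratio, so that its sign does not say which gene had the higher level per kilobase. The means were 0.63 ± 0.108 in the 6 controls and 0.32 ± 0.231 in the 6 mice given AZ6983 (both SD), a difference of -0.31, or a ratio 0.805 times that of controls (exact permutation test over all assignments of mice to groups, two-sided, p = 0.00649). The difference was -0.36 to -0.23 when each mouse was left out in turn (exact permutation p = 0.00649 to 0.0152), and -0.29 without A5. The ratio of Cidea to Cidec, the Cide genes of brown and white fat, differed by -0.00 between the groups (exact permutation p = 0.981).

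Plin2 was also set against each of the other genes. Its log2 ratio to each of the 9 others had a negative group difference (AZ6983 minus control), from -0.38 to -0.02. These signs follow by arithmetic, because Plin2 had the lowest group difference in mean log2 CPM of the 10 genes (-0.29, next Plin5 at -0.27). They are not 9 further observations. Of all 45 pairs of the 10 genes, 0 had groups that did not overlap and 4 had an exact permutation p under 0.05, namely Plin2 to Plin1, Plin5 to Pnpla2 (difference -0.36, p = 0.013), Plin2 to Lipe (-0.28, p = 0.0173) and Plin2 to Pnpla2 (-0.38, p = 0.0455). With Benjamini-Hochberg adjustment over the 45 pairs none of them passed, the exact permutation p of Plin2 to Plin1 becoming 0.26. The Plin2 to Plin1 ratio moved inversely with the white adipocyte score (r = -0.65, rho -0.69, permutation p = 0.0205, adjusted over 9 lists 0.0925), with r = -0.33 within controls, -0.83 within AZ6983 mice and -0.90 without C2 and A5. With the macrophage score its r was 0.53 (rho 0.48, permutation p = 0.0788, adjusted 0.236), and with the brown score 0.25 (rho 0.28, permutation p = 0.447, adjusted 0.507). The r of -0.78 with the thymocyte score (rho -0.44, permutation p = 0.00763, adjusted 0.0687) rested on A4 and C4, without which it was -0.29. The white score itself differed by 0.23 between the groups, as given above, and its part in the ratio was not tested.

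**Figure D5:**
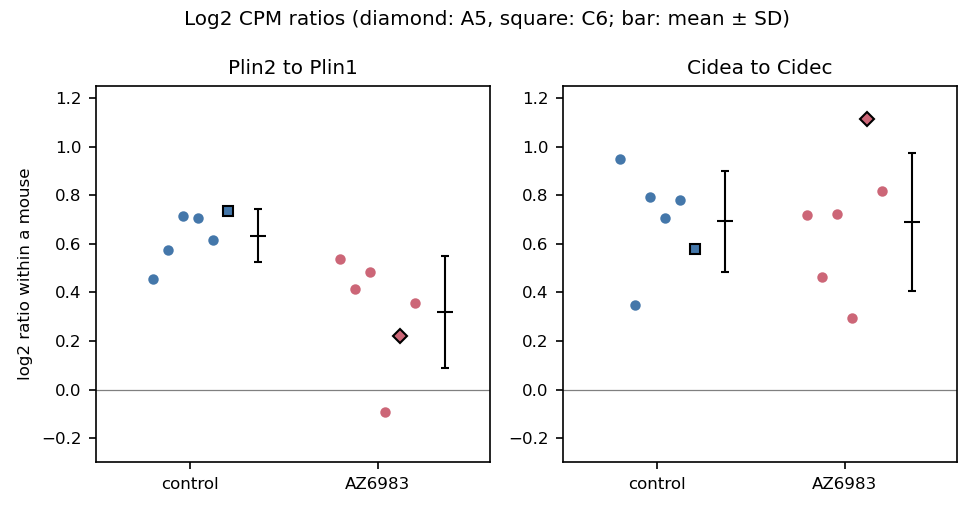
Log2 ratio of Plin2 to Plin1 and of Cidea to Cidec within each mouse (vertical axis, log2 CPM difference), 1 point per mouse, with mean and SD as a bar (A5 a diamond, C6 a square). The Plin2 to Plin1 ratio was 0.63 on average in controls and 0.32 in AZ6983 mice, and the Cidea to Cidec ratio 0.69 in both.

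Genes that regulate these enzymes and coats had no call in the edgeR fit of all 12 mice without a covariate. Of 19 lipolysis regulators, 12 log2 fold changes were positive and 7 negative, with a median of 0.02 beside 0.01 over all genes, and 0 were called at 10% FDR. By DESeq2 1 of the 19 was called, against 92 of 17592 genes. In edgeR without A5 the balance turned to 4 positive and 15 negative with a median of -0.15, and with the brown score as a covariate it was 16 to 3 with a median of 0.25 and 0 called. In that covariate fit 9 of 19 reached an unadjusted edgeR p under 0.05, all higher, against a background of 1599 of 15857 genes higher at that p.

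Abhd5, the coactivator of Pnpla2, had medians of 109 CPM in controls, and 93.3 CPM after AZ6983 (log2 fold change -0.07, SE 0.156, edgeR adjusted p = 0.898). G0s2, an inhibitor of Pnpla2, had 76.1 and 107 CPM (log2 fold change 0.31, SE 0.200, edgeR adjusted p = 0.583), and Hilpda, another inhibitor, 6.22 and 5.67 CPM (-0.13, SE 0.102, adjusted p = 0.637). Adrb3, the β-adrenergic receptor typical of adipocytes, had 59.5 and 48.5 CPM with 107 CPM in A5 (log2 fold change 0.03, SE 0.220, edgeR adjusted p = 0.971). The groups overlapped for all 4 genes.

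Among 21 genes of triglyceride synthesis and droplet formation, 19 were tested, 9 log2 fold changes were positive and 10 negative, and the median was -0.02, with 0 called. Without A5 these became 5 positive and 14 negative with a median of -0.08, and with the brown score as a covariate 15 positive and 4 negative with a median of 0.14. In the covariate fit 2 of the 19 were called, Acsl3 (log2 fold change 0.58, SE 0.110, edgeR adjusted p = 0.0752) and Dgat1, which encodes an enzyme of the last step of triglyceride synthesis and was named after its values were seen (0.32, SE 0.071, adjusted p = 0.0995), against the background of 0.82%. In the fit without a covariate, Acsl3, an acyl-CoA synthetase that acts at new droplets, was the 1 gene of 19 with an unadjusted p under 0.05. The background at that p was 10.2% of all genes. Acsl3 had 30.6, 36.5 and 48.1 CPM in controls, and 41.0, 47.0 and 68.1 CPM after AZ6983, with overlap (log2 fold change 0.42, SE 0.140, edgeR adjusted p = 0.448). Of 8 transcription regulators of droplet genes 7 had a positive and 1 a negative log2 fold change with a median of 0.16 and 0 called, but without A5 the median was -0.02, with 3 positive and 5 negative. Pparg, the nuclear receptor that drives adipocyte genes, had medians of 128 CPM in controls, and 119 CPM after AZ6983 and reached 238 CPM in A5 (log2 fold change 0.12, SE 0.187, edgeR adjusted p = 0.830). With the brown score as a covariate Pparg was the 1 of the 8 regulators called (log2 fold change 0.35, SE 0.075, edgeR adjusted p = 0.0864), against the background of 0.82% of all genes.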

How the data were processed

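Stranded total RNA depleted of ribosomal RNA was sequenced from 12 mice. The authors deposited counts per gene symbol, not normalized. The submitters' processing notes name mm10, CASAVA 1.8.2, STAR 2.5.2b and HTSeq 0.6.1p1, without their roles. Rows that name no gene were left out of library sizes (reads on no gene were 8.02% to 12.7% of the table in controls and 11.2% to 14.9% in AZ6983 mice). In 66 pairs of libraries, chi-square per degree of freedom was 13.1 to 247, so none was a copy. Groups came from sample labels, and the numbers ending the column names, of unstated meaning, largely separate the groups.

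AZ6983 was compared with control in edgeR 4.0.16 (R 4.3.3) by the quasi-likelihood test at 10% FDR, without covariates, after TMM scaling and filterByExpr, with DESeq2 1.42.0 and limma 3.58.1 (voom) as alternatives, beside other normalizations and filters, covariates (fat scores, unassigned reads), and each mouse left out. Standard errors were derived from the F statistic and the log2 fold change. Log2 CPM used a prior count of 2. Ratios were tested over all assignments of mice to groups (smallest p 0.00216), and correlations with 100000 permutations or exactly within groups. Steps were tested on simulated data. Positions and exon lengths came from GENCODE M21, by symbol, and promoters from RefSeq.

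The 10 genes and all lists were chosen with earlier results of these data known. Named besides them were the 3 genes most alike to each, Apoe, Chrna7, G0s2, Abhd5, Hilpda, Pparg, Adrb3 and, no list gene being called, the 2 highest and 2 lowest by fold change among those with an unadjusted p under 0.05. 1 gene that this rule names is not reported here. The ratios of all 45 pairs, the relation of the ratio to marker scores, the values for Plin2 without A5 and the fit without A1 and A4 were chosen after seeing the data.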

Additional observations from a re-analysis of the deposited data

Results flagged for a closer look

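In 7 of 42 groups of 6 mice, 1 mouse stood apart from the others by more than Dixon's critical value, where chance gives about 2.1. All values are log2 CPM. In AZ6983 mice A5 was high for Plin1 (9.06, others 8.09 to 8.32), for Lipe (9.49, others 8.33 to 8.53) and for Mgll (8.92, others 8.12 to 8.33). In controls C6 was low for Cidea (8.62, others 9.26 to 9.35) and for the brown adipocyte score (6.48, others 6.98 to 7.15). The white adipocyte score was high in control C2 (7.90, others 7.09 to 7.33), and the thymocyte and T cell score was high in A4 (6.75, others -0.40 to 2.26). The cause of these gaps was not tested.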

How the results depend on the processing

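No paired analysis was possible because the labels give the groups no shared replicate numbers. Of the 10 genes, 0 were called under any of 24 alternatives. Over all genes, 0 calls became 2 without TMM, 92 with DESeq2, 130 with the brown score as a covariate, 1 with both fat scores, 1 without A1 and A4, and 0 to 27 when each mouse was left out, 27 being the value without A5. The Plin2 to Plin1 difference kept its direction and an unadjusted exact permutation p under 0.05 in all 14 alternatives, while its p adjusted over the 45 pairs was 0.26. Plin2 and Plin4 kept a negative log2 fold change in 23 of 23, and the other 8 genes changed sign in some, the cause of which was not tested. With the brown score the log2 fold changes became 0.25 for Cidea, 0.0839 for Cidec and 0.0575 for Mgll, and with both scores 0.0139 for Plin3, 0.0423 for Plin5, 0.25 for Cidea and 0.0330 for Mgll. With the white score they became -0.17 for Plin1, -0.0784 for Pnpla2 and -0.18 for Lipe. With unassigned reads as a covariate they became -0.0542 for Plin1, 0.0410 for Plin5 and 0.0543 for Cidea, and with limma-voom -0.0107 for Lipe. Without A1 and A4, Cidea was at 0.12 and the Cidea to Cidec difference at 0.0874. Leaving out each mouse gave -0.15 to 0.11 for Plin1, -0.26 to 0.0300 for Cidea, -0.0895 to 0.18 for Pnpla2, -0.21 to 0.10 for Lipe and -0.0888 to 0.0751 for Cidea to Cidec, the negative ends for the 4 genes being those without A5. Fat lists held 7 genes at r of at least 0.6, 4 at 0.8, and 5 to 8 when each mouse was left out. Each of the 10 genes had at least 1224 counts in every mouse.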
